A study of Mus musculus with 4 samples.

Results

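Metabotropic receptors are G protein-coupled receptors that turn the binding of a transmitter or peptide into slow changes of second messengers and ion channels. Members that couple to Gi/o, such as the GABAB, group III glutamate, M2 muscarinic and CB2 cannabinoid receptors, lower cyclic AMP. Members that couple to Gs, such as the beta-adrenergic and calcitonin gene-related peptide (CGRP) receptors, raise it, and those that couple to Gq act through phospholipase C. In the spinal cord they are known for presynaptic inhibition and for the actions of descending monoamine fibres, and microglia use several of them to sense transmitters.

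The receptor genes described here are 49 named genes out of 42458 rows of the deposited count table, chosen by exact gene name. They cover GABAB (2 genes), metabotropic glutamate (5), serotonin (11), dopamine (4), adrenergic (6), muscarinic (5), adenosine (2), cannabinoid (2), somatostatin (4) and other peptide receptors (8, among them the accessory subunit Ramp1). All 49 names were found. Of these genes, 29 had at least 1 count, 21 had at least 10 counts in total and were tested, and 12 had a mean of 1 CPM or more. The tested share was 42.9%, close to the 43.6% of all 42458 rows, of which 13970 had a mean of 1 CPM or more. CPM stands for counts scaled by TMM normalization to one common library size.

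RNA of 50 cells was sequenced from each of 4 wild-type mice of the C57BL6 background. Every mouse carried the virus AAV2-CAG-tdT, given into a brain ventricle, and live tdTomato-positive cells were sorted from dissociated spinal cord slices that held the ependymal region. The sort was meant to enrich CSF-cNs, the neurons of the central canal that contact cerebrospinal fluid. The CAG promoter is active in most cell types, so it does not by itself limit the label to a type. The mice form a single group with no control library, and the labels give neither age nor sex. Values in lists of 4 belong to mice 1, 2, 3 and 4 in that order.

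The libraries held 83007030 to 115479640 counts, and 3 counts, the level that a count of 0 allows, equalled 0.0278 to 0.0348 CPM, a limit that covers counting error only. Transcripts of CSF-cNs did not match the label in every library. Pkd2l1, the channel gene that defines these neurons, stood at 17.9, 0.193, 664 and 690 CPM. The 9 CSF-cN markers summed to 20.3, 12.9, 941 and 846 CPM, and 1 of them, P2rx2, had no count. The viral transgene, the label of the sort, had 5, 58, 13533 and 153379 counts, few of them in mice 1 and 2. All 10 microglia markers were called above 10 CPM and summed to 57980, 60970, 36890 and 51460 CPM. The 10 oligodendrocyte markers summed to 14830, 236, 19050 and 454 CPM, and the 10 neuron markers to 126, 89.9, 1140 and 445 CPM. The 10 ependymal markers summed to 1.72, 3.41, 18.2 and 85.7 CPM, highest in mouse 4. The 5 mural cell markers (0.0116 to 2.79 CPM) were low. In bulk libraries, fewer cells of a type and less RNA per cell cannot be told apart.

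Of the 49 receptor genes, 3 were called above 10 CPM: Ramp1, Cnr2 and Calcrl. The level test was edgeR's quasi-likelihood test of each gene against 10 CPM, with Benjamini-Hochberg adjustment over the 18522 tested genes, of which 36.7% were called above that level. The 3 calls came from 21 tested members, a smaller share than that of all tested genes. limma-voom called the same 3 above 10 CPM, where it called 35.9% of all tested genes, and 12 members below, where it called 33.3%. DESeq2 called Ramp1 alone above (33.2% of all genes) and 4 members below (11.0%), and gave no adjusted p for 9 of the 21. Without mouse 1, 2, 3 or 4 in turn, edgeR called 36.3%, 36.6%, 36.7% and 35.9% of all tested genes above and none below. Without both mice 1 and 2, the libraries low in CSF-cN markers, it called Ramp1 alone above, with 37.0% of all tested genes. The median fitted level was -3.10 (log2 relative to 10 CPM) over the 21 tested members and -0.07 over all tested genes. In every library, 6 receptor genes reached 1 CPM (Ramp1, Calcrl, Cnr2, Adrb1, Vipr1 and Gabbr1). A further 3 reached 1 CPM in mice 3 and 4 (Grm7, Chrm2 and Htr6), and Grm4 did so in mice 1 and 3, Gabbr2 in mouse 3 and Sstr2 in mouse 4.

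**Figure D1:**
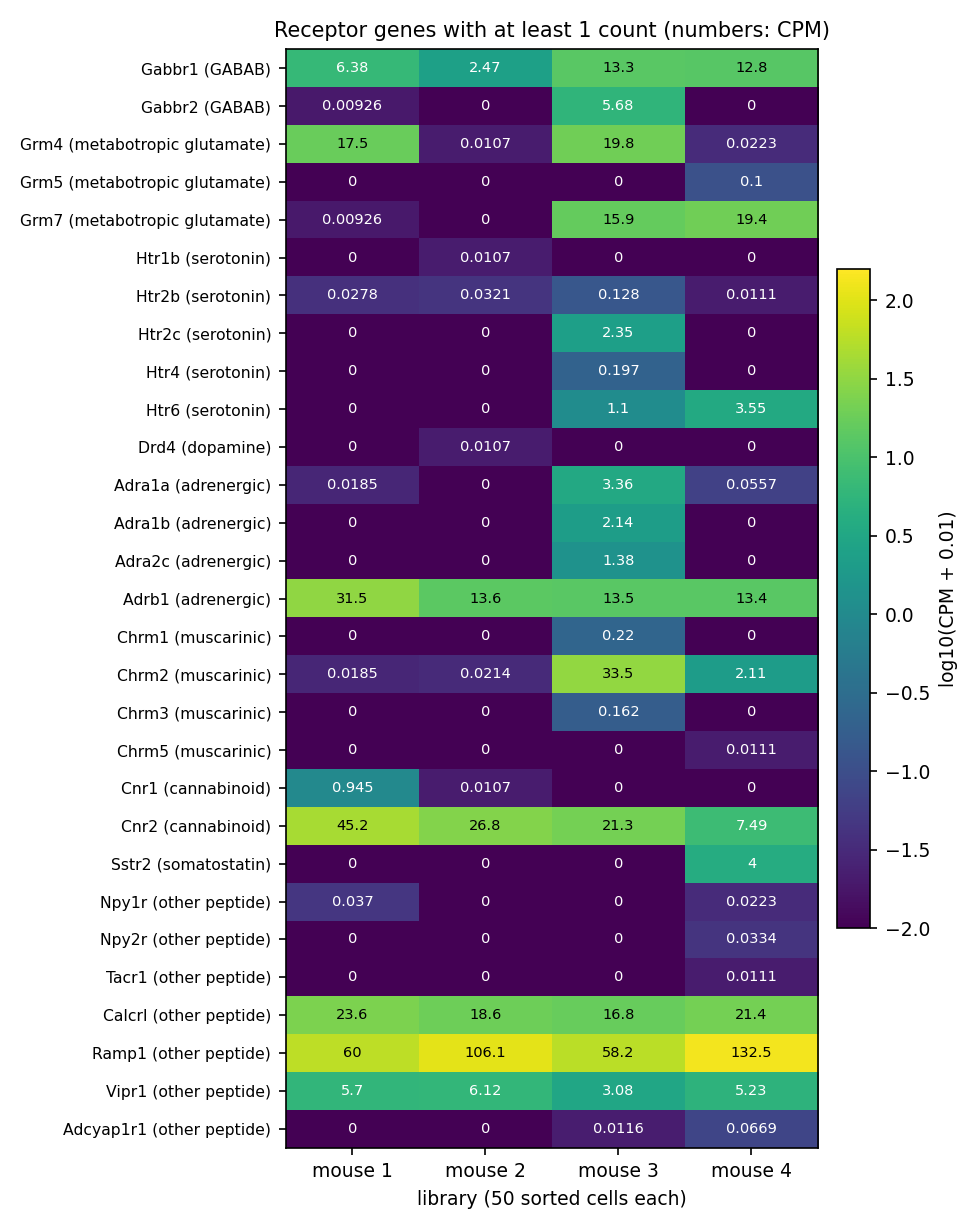
CPM of the 29 receptor genes with at least 1 count (rows, with the family in parentheses) in the libraries of the 4 mice (columns); colour gives log10(CPM + 0.01). Ramp1 was the highest gene in each column, and the columns of mice 3 and 4 hold most of the members that reached 1 CPM in some libraries only.

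Ramp1, of the CGRP receptor, had the highest level of the 49 genes. Positions are those of the whole gene in GRCm38 (mm10): Ramp1 lies at chr1:91179822-91225196 on the plus strand and Calcrl at chr2:84330626-84425411 on the minus strand. Ramp1, a single-pass protein that carries Calcrl to the cell surface and makes it a CGRP receptor, stood at 60.0, 106.1, 58.2 and 132.5 CPM. It was the highest receptor gene in every library and made up 31.4%, 61.1%, 27.5% and 59.7% of the summed CPM of the 49 genes. Mice 2 and 4 were the high libraries, and their 95% Clopper-Pearson counting intervals (104 to 108 and 130 to 135 CPM) lay above those of mice 1 and 3 (58.5 to 61.5 and 56.6 to 59.8 CPM). Counting intervals treat reads as independent and are too narrow, here and below. The fitted log2 level relative to 10 CPM was 3.16 (SE 0.16, edgeR adjusted p = 6.2e-06). Leaving out any mouse kept this call, with levels of 2.88 to 3.34.

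Calcrl, the receptor that binds CGRP together with Ramp1, stood at 23.6, 18.6, 16.8 and 21.4 CPM. It varied little, with a mean of 20.1 ± 2.99 CPM (SD, n = 4) and a coefficient of variation of 14.9%, against 40.8% for Ramp1. It was called above 10 CPM (log2 level 1.00, SE 0.24, edgeR adjusted p = 0.015). The call was lost without mouse 1 (adjusted p = 0.058) and without mouse 4 (adjusted p = 0.077), and DESeq2 did not make it (adjusted p = 0.15). Calcrl is also known from endothelial cells. The 6 endothelial markers summed to 19.5, 12.2, 20.0 and 25.6 CPM. Much of this was Pecam1, at 18.1, 12.1, 9.04 and 14.6 CPM, in the same order of libraries as Calcrl. Flt1 (0, 0.0214, 5.18 and 8.46 CPM) and Kdr (1.40, 0.0321, 5.82 and 2.53 CPM) had other orders. Cldn5 had 3 counts, and the defining markers Cdh5 and Tek had none. The 3 tested markers were not called by edgeR, by limma-voom or at an unadjusted p under 0.05, which does not show absence. The part of endothelial cells in the Calcrl level was not tested.

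Per kb of exonic length, which allows genes to be compared, Calcrl stood at 4.82, 3.80, 3.44 and 4.37 CPM per kb, against 19.9, 35.1, 19.3 and 43.8 CPM per kb for Ramp1. Calcrl was the lower in 4 of 4 mice. The mean log2 ratio of Calcrl over Ramp1 was -2.74 ± 0.61 (SD, n = 4; pseudocount 0.1 CPM per kb; exact two-sided sign-flip permutation p = 0.13, adjusted 0.13 over 3 pairs). That p is the smallest that 4 mice can give, so no pair could be called. Ramp2, which pairs Calcrl with adrenomedullin instead, stood at 0.255, 0, 1.85 and 0.452 CPM per kb, and Ramp3 had no count.

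The windows around the starts of both genes, from 250 bases before to 50 bases after the RefSeq start (build GRCm38.p6), are shown because they belong to the receptor pair found in every library. Capitals mark the core GAGGAA bound by the microglial factor PU.1, searched on both strands. Ramp1 is on the plus strand, at chr1:91179572-91179871, with 55.7% GC, and Calcrl on the minus strand, at chr2:84425217-84425516, with 50.7% GC.
Ramp1: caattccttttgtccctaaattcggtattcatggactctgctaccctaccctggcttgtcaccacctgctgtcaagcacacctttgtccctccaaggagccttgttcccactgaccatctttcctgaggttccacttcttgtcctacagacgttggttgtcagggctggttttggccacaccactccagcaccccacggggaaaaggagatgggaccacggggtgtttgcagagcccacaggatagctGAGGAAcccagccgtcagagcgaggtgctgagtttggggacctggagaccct
Calcrl: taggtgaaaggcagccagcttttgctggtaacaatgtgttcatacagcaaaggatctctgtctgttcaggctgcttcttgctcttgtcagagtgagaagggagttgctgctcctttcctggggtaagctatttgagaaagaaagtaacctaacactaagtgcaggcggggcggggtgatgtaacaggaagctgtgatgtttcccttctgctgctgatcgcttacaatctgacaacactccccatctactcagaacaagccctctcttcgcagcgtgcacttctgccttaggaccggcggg
The core occurred once in the Ramp1 window and not in that of Calcrl. It occurred in 28.3% of all 32851 such windows in the table.

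The cannabinoid receptors differed within the pair. Cnr2 (chr4:135895394-135920207, plus strand), the CB2 receptor known from immune cells and microglia, stood at 45.2, 26.8, 21.3 and 7.49 CPM. Mouse 1 was the highest and mouse 4 the lowest. The 95% counting intervals of the 4 libraries did not overlap, but they are too narrow and do not cover differences between mice. Cnr2 was called above 10 CPM (log2 level 1.33, SE 0.35, edgeR adjusted p = 0.025), although mouse 4 lay below that level. The call was lost without mouse 1 (adjusted p = 0.18), without mouse 2 (0.077) and without mouse 3 (0.067), and DESeq2 did not make it (0.066).

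Cnr1, the CB1 receptor of neurons and some glia, had 102, 1, 0 and 0 counts, or 0.945 CPM in mouse 1 and 0.0107 CPM in mouse 2. Per kb of exonic length, Cnr2 stood at 11.4, 6.72, 5.34 and 1.88 CPM per kb, and Cnr1 reached 0.147 CPM per kb in mouse 1, its highest library. The mean log2 ratio of Cnr2 over Cnr1 was 5.42 ± 0.77 (SD over 4 mice; exact sign-flip p = 0.13, adjusted 0.13), with Cnr2 the higher in 4 of 4 mice. It depends on the pseudocount, with a mean of 2.64 at a pseudocount of 1, because Cnr1 was at or near 0.

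Adrb1 (chr19:56722199-56733113, plus strand), the beta-1 adrenergic receptor, which couples to Gs, stood at 31.5, 13.6, 13.5 and 13.4 CPM. Mouse 1 was high, and the other 3 mice had overlapping counting intervals. It was not called (log2 level 0.85, SE 0.32, edgeR adjusted p = 0.092), with an adjusted p of 0.11 to 0.39 when any mouse was left out. Of the other adrenergic members, Adra1a (3.36 CPM), Adra1b (2.14 CPM) and Adra2c (1.38 CPM) had their high value in mouse 3 and at most 0.0557 CPM in the other mice, while Adra2a and Adra2b had no count. Per kb of exonic length, Adrb1 stood at 9.30, 4.04, 3.98 and 3.96 CPM per kb.

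Vipr1 (chr9:121642716-121672954, plus strand), a receptor for vasoactive intestinal peptide that couples to Gs, stood at 5.70, 6.12, 3.08 and 5.23 CPM, or 5.03 ± 1.35 CPM on average (SD, n = 4). Mouse 3 was the low library, and its counting interval (2.72 to 3.48 CPM) lay apart from those of the other 3 mice. edgeR did not call the level, at -0.99 on the log2 scale (SE 0.70, adjusted p = 0.30). The summed microglia markers were also lowest in mouse 3, although Sall1 was lowest in mouse 1 (169.6 CPM, against 189.5 CPM in mouse 3). Ramp1 and Calcrl were lowest in mouse 3 too, while Cnr2 was lowest in mouse 4 and Adrb1 was alike in mice 2, 3 and 4. The part of microglia in the levels of Ramp1, Cnr2, Adrb1, Calcrl and Vipr1 was not tested.

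**Figure D2:**
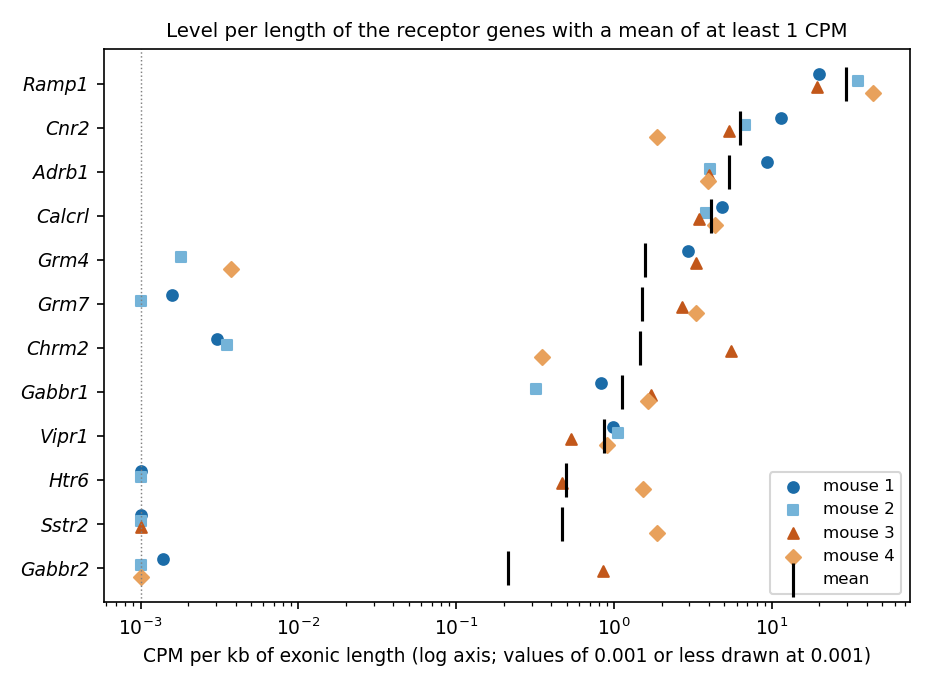
CPM per kb of exonic length (log axis) of the 12 receptor genes that averaged 1 CPM or more; each symbol is a mouse and the black bar is the mean of 4 mice. Ramp1 lies highest, Calcrl and Vipr1 show the narrowest spread, and Grm4, Grm7, Chrm2, Htr6, Sstr2 and Gabbr2 split into libraries with and without the transcript.

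GABAB receptors are dimers in which Gabbr1 binds GABA and Gabbr2 reaches the G protein and brings the dimer to the surface. Gabbr1 (chr17:37045966-37075067, plus strand) stood at 6.38, 2.47, 13.3 and 12.8 CPM, so that mice 3 and 4 were the high libraries and mouse 2 the low one. edgeR did not call its level, at -0.20 on the log2 scale (SE 0.58, adjusted p = 0.78). Gabbr2 (chr4:46662305-46991873, minus strand) had 1, 0, 490 and 0 counts, which is 5.68 CPM in mouse 3.

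Mouse 4 thus held 1146 counts of Gabbr1 and none of Gabbr2, where a count of 0 allows up to 0.0334 CPM. Per length, Gabbr1 stood at 0.822, 0.318, 1.71 and 1.65 CPM per kb and Gabbr2 at 0.00139, 0, 0.850 and 0 CPM per kb. The log2 ratio of Gabbr1 over Gabbr2 was 3.18, 2.06, 0.93 and 4.12, smallest in mouse 3. Its mean was 2.58 ± 1.38 (SD over 4 mice; exact sign-flip p = 0.13, adjusted 0.13), and 0.80 at a pseudocount of 1. Gabbr2 was at or near 0 in 3 libraries, so the ratio there is set by the pseudocount.

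Of the metabotropic glutamate receptors, the group III members Grm4 and Grm7, which are known to act at presynaptic endings through Gi/o, were present in different libraries. Grm7 (chr6:110645581-111567230, plus strand) had 1, 0, 1372 and 1742 counts, or 0.00926, 0, 15.9 and 19.4 CPM. Mice 3 and 4 were high and did not overlap in counting error, and mice 1 and 2 lay within what a count of 0 allows. Its antisense neighbour Gm20387, which shares 130 exonic bases with it, had 103, 0, 97 and 455 counts. The libraries do not keep the strand, so reads in that stretch cannot be told apart.

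Grm4 (chr17:27422387-27521403, minus strand) had 1892, 1, 1704 and 2 counts, or 17.5, 0.0107, 19.8 and 0.0223 CPM. Mice 1 and 3 were high, and mice 2 and 4 lay within what a count of 0 allows. The summed oligodendrocyte markers were also high in mice 1 and 3. The 10 astrocyte markers summed to 1253, 161, 1348 and 301 CPM, mostly from Aldoc (835, 11.6, 846 and 118 CPM) and S100b (298, 4.20, 440 and 10.5 CPM). Of the other astrocyte markers, Slc1a3 stood at 114.9, 122, 52.2 and 155 CPM, Gfap was highest in mouse 2, and Aqp4, Gja1 and Sox9 in mouse 4. Slc1a2, Aldh1l1 and Gjb6 were highest in mouse 3, at 0.290, 0.116 and 1.30 CPM. The part of these cells in the Grm4 level was not tested. Grm5, which couples to Gq, had 9 counts in mouse 4 alone, and Grm2 and Grm8 had no count.

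Over the 4 mice edgeR called neither gene apart from 10 CPM, with a log2 level of -0.10 (SE 1.44, adjusted p = 0.96) for Grm4 and -0.18 (SE 1.59, adjusted p = 0.93) for Grm7. For both genes the 4 libraries lay on either side, with a pair near 0 and a pair above 10 CPM. Relative to 1 CPM, a lower level fixed as an alternative, no receptor gene was called below, where 0.0324% of all tested genes were, and 9 were called above, where 59.1% were. The 9 were Ramp1, Calcrl, Cnr2, Adrb1, Vipr1, Gabbr1, Grm4, Grm7 and Chrm2.

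Chrm2 (chr6:36388084-36528414, plus strand), the M2 muscarinic acetylcholine receptor, which couples to Gi/o, had 2, 2, 2887 and 189 counts, or 0.0185, 0.0214, 33.5 and 2.11 CPM. Mouse 3 was the high library, mouse 4 lay far below it, and mice 1 and 2 were within what a count of 0 allows. In mouse 3 it was second to Ramp1 among the receptor genes per length, at 5.53 CPM per kb. edgeR did not call the level, at -0.17 on the log2 scale (SE 1.51, adjusted p = 0.93). Chrm1 and Chrm3, which couple to Gq, had 19 and 14 counts in mouse 3 alone, Chrm5 had 1 count, and Chrm4 had none. Chrm2 shares 142 exonic bases with 9330158H04Rik on the opposite strand, which had 0, 0, 17 and 13 counts.

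The RefSeq start windows of Grm7 and Chrm2 (build GRCm38.p6) are shown for comparison with those of Ramp1 and Calcrl. Both genes reached 1 CPM only in mice 3 and 4, where the sums of CSF-cN, neuron, ependymal and fibroblast markers were all higher. Capitals mark the PU.1 core or its reverse complement TTCCTC. Grm7, with 2 overlapping windows in the table, is on the plus strand and is shown at chr6:110645348-110645647, with 66.7% GC. Chrm2 is on the plus strand at chr6:36387834-36388133, with 52.7% GC.
Grm7: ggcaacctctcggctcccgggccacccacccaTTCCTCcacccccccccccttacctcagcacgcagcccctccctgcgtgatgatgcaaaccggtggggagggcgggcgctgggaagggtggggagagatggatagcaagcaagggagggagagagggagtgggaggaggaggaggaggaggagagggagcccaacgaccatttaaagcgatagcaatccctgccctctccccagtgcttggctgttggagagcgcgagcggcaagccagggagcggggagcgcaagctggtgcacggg
Chrm2: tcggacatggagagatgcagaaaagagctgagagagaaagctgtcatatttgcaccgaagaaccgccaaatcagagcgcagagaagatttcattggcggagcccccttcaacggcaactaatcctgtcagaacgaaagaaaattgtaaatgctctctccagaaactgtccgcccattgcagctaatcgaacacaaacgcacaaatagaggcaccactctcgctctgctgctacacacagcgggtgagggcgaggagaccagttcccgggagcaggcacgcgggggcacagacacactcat
The core AGATAA of GATA factors, of which Gata2 and Gata3 mark CSF-cNs, occurred in 11.2% of all windows and in none of the 14 windows of the 11 described receptor genes that have one. The TATA box TATAAA occurred in 13.6% of all windows and likewise in none of the 14. The PU.1 core occurred in the windows of 3 of the 11 genes (Ramp1, Gabbr1 and Grm7). A match or its absence in such a short window says nothing about binding.

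Serotonin receptors were sparse. Htr6 (chr4:139061108-139075570, minus strand), which couples to Gs, had 0, 0, 95 and 319 counts, or 1.10 CPM in mouse 3 and 3.55 CPM in mouse 4. Htr2c, which couples to Gq, had 203 counts in mouse 3 alone (2.35 CPM), and Htr4 had 17 counts in mouse 3 alone. Of the 11 serotonin members, 6 had no count (Htr1a, Htr1d, Htr1f, Htr2a, Htr5a and Htr7), and Htr1b had 1.

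Htr2b was the 1 receptor gene called below 10 CPM by edgeR (log2 level -7.66, SE 2.30, adjusted p = 0.041), where 0.664% of all tested genes were. It had 3, 3, 11 and 1 counts. It shares 252 exonic bases, 11.8% of its length, with Psmd1 on the opposite strand, which had 10211 to 31735 counts, so reads in that stretch cannot be told apart. With any mouse left out, edgeR called none of all tested genes below 10 CPM, and the call of Htr2b was lost too. Without mouse 3, which held 11 of the 18 counts of Htr2b, the gene fell under 10 counts and was not tested. limma-voom and DESeq2 also called Htr2b below, where they called 33.3% and 11.0% of all tested genes. Members with no count were not tested, so the count below 10 CPM does not describe them.

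**Figure D3:**
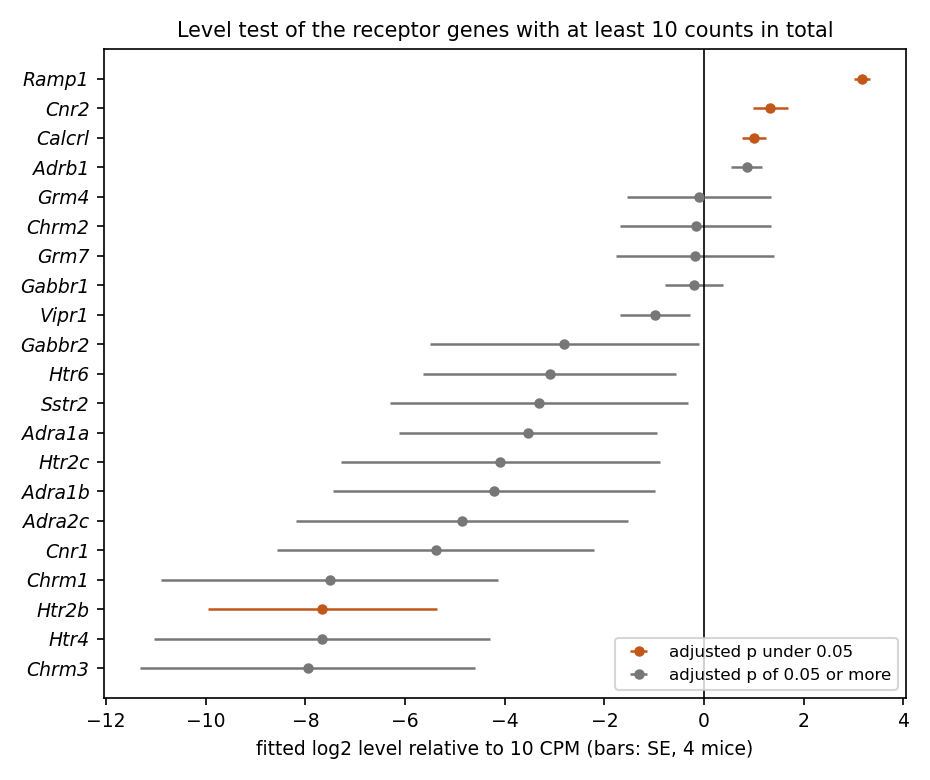
Fitted log2 level relative to 10 CPM with its SE for the 21 tested receptor genes, 4 mice; orange marks an edgeR adjusted p under 0.05. Ramp1, Cnr2 and Calcrl lie above 0, and the genes near or below 0 with long bars have libraries at or near a count of 0.

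Among the 49 genes, the dopamine and adenosine members and most peptide receptors were nearly without counts. Of the 4 dopamine members, Drd4 had 1 count in mouse 2, and Drd1, Drd2 and Drd5 had none. Neither Adora2a nor Adora2b had a count. Adora1 and Adora3, adenosine receptors outside the 49 genes, did have counts and are given below. Sstr2 (chr11:113619342-113626028, plus strand), a somatostatin receptor that couples to Gi/o, had 359 counts in mouse 4 alone (4.00 CPM, counting interval 3.60 to 4.44 CPM), and Sstr1, Sstr3 and Sstr4 had none. The remaining peptide receptors were at the detection limit: Npy1r had 6 counts in total, Npy2r 3, Tacr1 1 and Adcyap1r1 7, and Crhr1 had none. By mean, Sstr2 was the lowest member above 1 CPM (1.00 CPM) and Adra1a the highest below it (0.859 CPM).

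Across the libraries, 7, 6, 15 and 10 of the 49 genes reached 1 CPM, and 14, 12, 20 and 19 had a count. The summed level was more even, at 191, 174, 212 and 222 CPM, of which Ramp1 made up 27.5% to 61.1%. By coupling, the 26 Gi/o members summed to 70.1, 29.3, 111 and 45.9 CPM, the 12 Gs members to 60.7, 38.3, 34.7 and 43.6 CPM, and the 10 Gq members to 0.0463, 0.0321, 8.37 and 0.189 CPM. Every Gq-coupled member averaged under 1 CPM. Mouse 3 was the high library for both the Gi/o and the Gq sums. It also had the highest sums of CSF-cN, neuron, oligodendrocyte, astrocyte and fibroblast markers. The 6 fibroblast markers summed to 11.5, 0.203, 1023 and 116 CPM, of which Dcn was 989 CPM and Igf2 29.5 CPM in mouse 3, where Lum, Col1a1 and Pdgfra had no count. What these cells add to the receptor genes of mouse 3 was not tested.

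**Figure D4:**
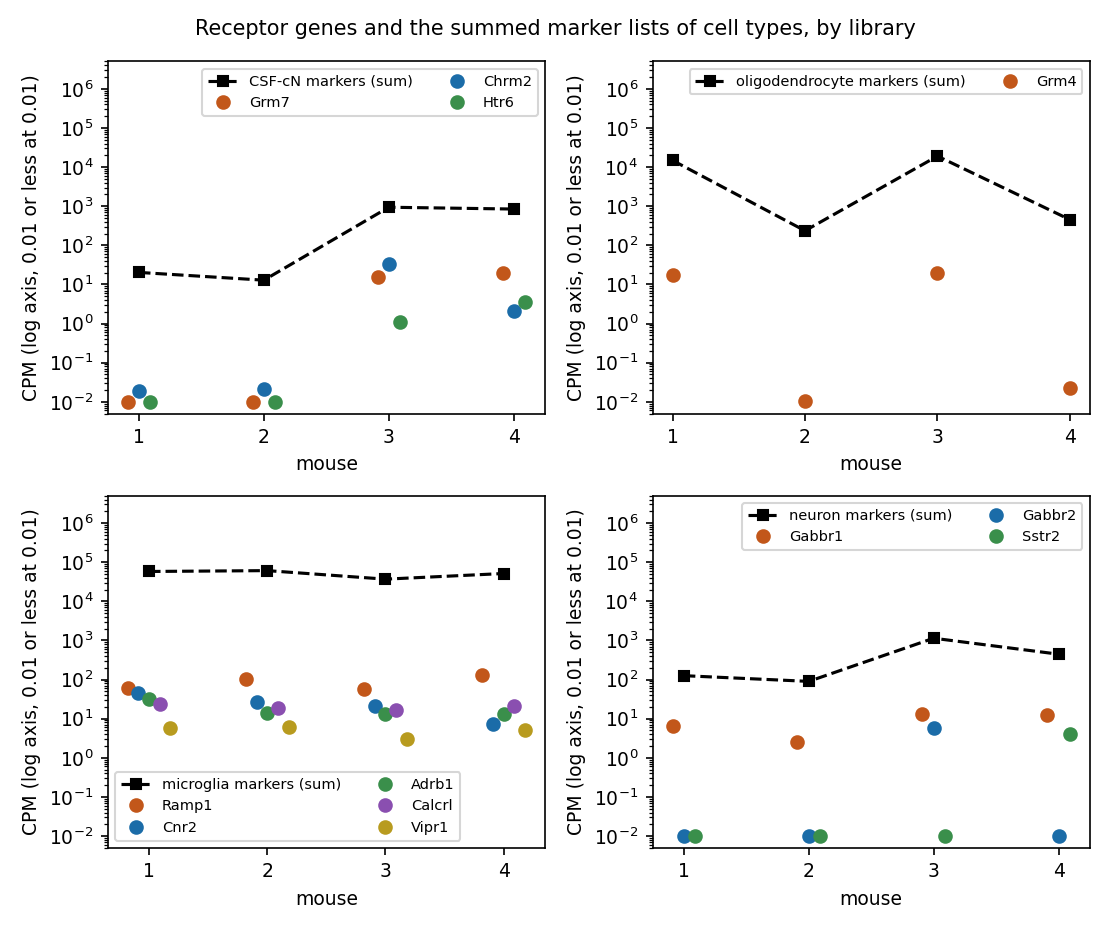
CPM (log axis) of 12 receptor genes (coloured points) beside the summed CPM of a marker list (black squares, joined by a dashed line only to guide the eye) in each of the 4 libraries; values of 0.01 CPM or less are drawn at 0.01. Grm7, Chrm2 and Htr6 reached 1 CPM in mice 3 and 4 alone, although Chrm2 stood at 33.5 CPM in mouse 3 and 2.11 CPM in mouse 4. The CSF-cN markers were high in mice 3 and 4. The neuron, ependymal and fibroblast sums were also higher there than in the other libraries, and the ependymal and fibroblast sums are not drawn. The part of each cell type was not tested. Grm4 was high in mice 1 and 3, as were the oligodendrocyte markers and the summed astrocyte markers, which are not drawn.

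Genes through which these receptors act were also counted. Of 14 Gi/o coupling genes, 5 were called above 10 CPM by edgeR, a share close to the 36.7% of all tested genes, and none below. The median log2 level was -1.11 for these genes and -0.07 for all tested genes. Among them were the regulator gene Rgs10 (737 ± 245 CPM, SD, n = 4) and the G protein gene Gnai2 (519 ± 118 CPM), followed by Rgs19 (175 ± 55.2 CPM) and Gnai3 (131 ± 46.3 CPM). Of 11 tested Gs coupling genes, 7 were called above and the median log2 level was 1.80, led by the G protein gene Gnas (925 ± 229 CPM) and Prkar1a, a protein kinase A subunit (431 ± 65.4 CPM). Prkacb, a catalytic subunit of that kinase, averaged 103 ± 45.4 CPM and the phosphodiesterase gene Pde4b 65.8 ± 37.5 CPM.

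Of 13 Gq coupling genes, 9 were called above 10 CPM, where 36.7% of all tested genes were, and the median log2 level was 1.69. The leading ones were Rgs2 (1086 ± 447 CPM), the G protein gene Gna15 (201 ± 50.5 CPM), the protein kinase C gene Prkcb (113 ± 35.9 CPM) and the calcium channel gene Itpr2 (96.7 ± 17.6 CPM). Of 7 receptor desensitisation genes, with a median log2 level of 0.76, 3 were called above: the receptor kinase genes Grk2 (77.0 ± 25.5 CPM) and Grk6 (24.2 ± 8.08 CPM) and the arrestin gene Arrb2 (37.3 ± 12.3 CPM). Grk3 (17.0 ± 15.2 CPM) was not called (adjusted p = 0.25). limma-voom called 5, 6, 9 and 3 genes above in these 4 lists, and 6, 1, 1 and 1 below, where it called 35.9% of all tested genes above and 33.3% below.

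Among 20 further receptors of the same families, 11 had no count and 7 were tested. Adora3, an adenosine receptor that couples to Gi/o, averaged 98.2 ± 28.8 CPM (SD, n = 4) and was called above 10 CPM by edgeR (log2 level 3.30, adjusted p = 2.0e-06). Adora1, the A1 receptor, stood at 18.0, 6.14, 22.2 and 0 CPM and was not called (adjusted p = 0.88). The genes without a count included Calcr, Vipr2, Drd3 and Tacr3.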

How the data were processed

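The authors deposited whole-number counts of 42458 rows, in 2 columns for each mouse. The build mm10 and the tools DESeq2, FastQC, RSEM, STAR and Trim Galore are named, per the submitters' processing notes. Versions, roles, settings and the annotation were not given in the sources used here. Per the labels' protocols, complementary DNA came from a SMART-Seq v4 kit and libraries from Nextera XT, which keep no strand and carry no molecular identifiers. The columns of a mouse were treated as repeat runs and summed, so that a mouse is 1 replicate (n = 4). The deposited log2 values equal log2 of these summed counts over a size factor, plus 1, and served only to check the sums.

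CPM used TMM factors (0.935, 0.982, 1.04 and 1.05). Genes with at least 10 counts were fitted with edgeR 4.0.16 (R 4.3.3) by an intercept-only quasi-likelihood model whose offset makes 0 equal 10 CPM. An F test on the deviances was adjusted by Benjamini-Hochberg at 0.05. The SE is the log2 level over the square root of F. Scripts were tested on simulated data. Alternatives used limma 3.58.1, DESeq2 1.42.0, other filters, scalings, levels and runs, and left out mice. Lengths are of the merged exons in GENCODE M21 (GRCm38). Start windows are RefSeq's (42 of 49 genes matched). Counting intervals are 95% Clopper-Pearson and treat reads as independent. Between the repeat runs of a mouse the mean chi-square per gene was 1.94 to 2.19, more than independent reads give. The intervals are therefore too narrow, and they do not cover differences between mice.

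The 49 genes, the lists and the tests were chosen with earlier results of these data known. Receptor genes that averaged 1 CPM or more are given in every mouse, and of each other list the 4 genes with the highest mean, or those needed beside a result; some of these genes are not reported here. The motifs and the printed windows were chosen after the values were seen.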

Additional observations from a re-analysis of the deposited data

Results flagged for a closer look

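Of 24 results examined (the 21 tested receptor genes and 3 pairs), 12 had a library so far from the other 3 that its gap passed Dixon's 95% limit. For normally distributed values chance passes it in about 1 of 20 groups, a rate that does not apply to counts like these: 22.1% of the 18522 tested genes passed it. For 7 of the 12 (Htr2c, Htr4, Adra1b, Adra2c, Chrm1, Chrm3 and Sstr2) all counts lay in 1 library, through which alone the gene was tested, so that the gap was fixed beforehand and is no finding. Mouse 3 was the distant library in 9 of the 12, and of these 9 only Chrm2, Gabbr2 and Adra1a had counts elsewhere. The gaps of the others were fixed beforehand, so the 9 cannot be read as an excess in mouse 3. Of all genes that passed, mouse 3 was the distant library in 39.7%. It also had the most genes with a count, 17291. In it, Chrm2 reached 33.5 CPM, Gabbr2 5.68, Adra1a 3.36, Htr2c 2.35, Adra1b 2.14, Adra2c 1.38, Chrm1 0.220, Htr4 0.197 and Chrm3 0.162 CPM. The summed CSF-cN, neuron, oligodendrocyte, astrocyte and fibroblast markers were also highest in mouse 3, the fibroblast sum through Dcn and Igf2. Their part in these values was not tested.

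Mouse 1 was the distant library for Adrb1, at 31.5 CPM, and Cnr1, at 0.945 CPM. Sstr2 reached 4.00 CPM in mouse 4 and had no count elsewhere.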

How the results depend on the processing

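The count of 3 receptor genes called above 10 CPM was 1 (Ramp1) under DESeq2, where 9 of 21 members lacked an adjusted p, and 1 without mice 1 and 2, a choice made with earlier results known. It was 9 relative to 1 CPM, and 1 to 2 when a mouse was left out (1 without mouse 1). The count of 1 below 10 CPM was 12 under limma-voom, 4 under DESeq2 and 8 with no filter on counts, which called 11.8% of all genes below. It was 0 with at least 100 counts, without mice 1 and 2 and with any single mouse left out, settings that called none of all tested genes below. It was also 0 relative to 1 CPM, which called 0.0324% of all tested genes below, and with the first run only, which called 0.168%. With at least 100 counts required, and without mouse 3, Htr2b itself had too few counts to be tested. The cause in the other settings was not tested. A newer form of edgeR's test, added after the data were seen, called 3 above and 1 below. Of all tested genes, that form called 37.2% above and 4.41% below.

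With a mouse left out, the log2 levels of Gabbr1 (-0.49 to 0.12), Grm4 (-0.78 to 0.32), Grm7 (-0.95 to 0.27) and Chrm2 (-3.82 to 0.28) changed sign, none of them called. All 3 pair ratios kept their sign under the alternatives run. Members with libraries near a count of 0 are limited by the spread between mice. No paired analysis was possible because the labels give a single group.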

Other observations

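Several genes of the coupling lists had their higher values in mice 3 and 4, the libraries in which Grm7, Chrm2 and Htr6 reached 1 CPM. They were named after their values were seen. Plcb4, a phospholipase C gene, stood at 0.0370, 1.04, 79.9 and 129.8 CPM and Plcb1 at 0.0185, 0, 15.2 and 19.9 CPM. The adenylyl cyclase gene Adcy2 stood at 0.00926, 0.0107, 13.1 and 10.6 CPM, and the G protein gene Gnaz at 0, 0.0107, 20.1 and 6.15 CPM. None of the 4 was separated from 10 CPM by edgeR, with adjusted p of 0.099, 0.92, 0.70 and 0.77. In contrast Gna15 was even, at 221, 247, 129 and 207 CPM, as was Gnai2, at 481, 668, 387 and 540 CPM.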
